A study of Mus musculus with 2 samples.

Results

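The genes described here drive the cell cycle and DNA replication: the cyclins and their kinases, the proteins that license and copy DNA, the regulators of mitosis, and the Rb and E2f families. They were chosen by name, as a list of 50 genes, and 49 of them had at least 1 probe set that the platform annotation pairs with that gene alone. The expression of Ccnb1 is not analysed here, and this gene enters only the promoter counts. The 49 were part of 18193 genes represented on the array, and all 49 gave a signal above the detection floor on both arrays.

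The cells were mouse embryonic stem (ES) cells. RNA from cells with a constitutive knockout of Eed (Eed KO) and from their control cells was hybridized to 1 Affymetrix MOE430 2.0 array each. Eed belongs to the Polycomb complex PRC2, which methylates histone H3 at silenced developmental genes. The labels give no passage, clone number, culture condition or site of the disruption, so it is not known here whether the Eed KO line is 1 clone. Each group is a single array, so there is no error between samples and no test between conditions. Every value below is a difference between these 2 arrays.

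Progress through the cell cycle is driven by cyclin-dependent kinases, each active only when bound to a cyclin. D-type and E-type cyclins act in G1 and at the entry into S phase, where they inactivate the pocket proteins Rb1, Rbl1 and Rbl2 and so release the E2f transcription factors, which switch on the genes for DNA replication. In ES cells G1 is short and cyclin E activity is known to be high through much of the cycle.

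The deposited values are MAS5 signal intensities, scaled alike on both arrays. The floor was 61.3, the 40th percentile of the signals, and lower signals were raised to it before ratios were taken. A gene was read through its brightest probe set and counted as 2-fold higher or lower from the ratio of Eed KO to control, given below as a log2 ratio where 0 means equal signals. The only measure of technical error is the disagreement between probe sets of one gene. It was taken between a gene's brightest and next probe set, both above the floor on both arrays, and grouped by the signal of the dimmer. The SD of the log2 ratio was 0.18 at signals above 2048, 0.23 between 512 and 2048, 0.37 between 128 and 512 and 0.49 below 128. It holds no variation between cultures.

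The main probe set of Eed read 10101 (control) and 11456 (Eed KO), and this checks nothing, since the labels do not say which part of the gene was disrupted. The deposited scaling left the arrays with median signals of 87.4 (control) and 108.1 (Eed KO), and the 3'/5' signal ratio of Gapdh, a sign of RNA quality, was 0.791 and 0.789. All 15 ES cell markers examined, Pou5f1, Sox2 and Nanog among them, were above the floor on both arrays. They were split in direction, with 8 ratios above 1 and 7 below it. At 1.5-fold 5 were higher and 2 lower, with log2 ratios from -0.99 (Dppa3) to 1.37 (Klf4). Many markers of other cells were higher in the Eed KO array, where 10.8% of all measured genes were at least 2-fold higher: 17 of 23 measured fibroblast markers by at least 2-fold (2 others, Lum and Fap, were under the floor on both arrays), 7 of 14 primitive endoderm markers (Ttr under the floor) and 6 of 11 trophectoderm markers (Cdx2 under the floor). All 23 fibroblast markers had a ratio above 1, but Dab2 (-0.44) and Lamb1 (-0.18) of the endoderm list and Tfap2c (-0.47) and Ascl2 (-0.88) of the trophectoderm list were below it. The summed signal of the fibroblast list was 23099 (control) and 48977 (Eed KO), against 152100 and 169771 for the ES cell list. In RNA from whole cultures, fewer cells of a type and less RNA per cell cannot be told apart. Whether other cells were present, or whether the ES cells themselves expressed these markers, was not tested. Any part of either in the differences below was not tested.

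Cell cycle genes were mostly a little lower in the Eed KO array. Of the 49 members, 42 had a ratio below 1 (85.7%), where 41.1% of all 13794 measured genes did. Most of the members are bright genes, and among the 5781 genes with a mean signal of at least 10 times the floor the share with a ratio below 1 was 54.1%; of the 39 members in that class 36 were lower. The members' median log2 ratio was -0.36, a 1.28-fold lower signal, beside 0.12 for all measured genes and -0.05 for the bright ones. The members in the middle of the distribution lay between -0.57 and -0.13 (lower and upper quartile), and 24 of the 49 were below the lower quartile of the bright genes (-0.37).

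Few of these differences were large. Only 1 member, the cyclin E1 gene Ccne1, was at least 2-fold lower, where 3.27% of all measured genes were, and 2 members, the cyclin D2 gene Ccnd2 and the pocket protein gene Rbl1, were at least 2-fold higher, where 10.8% were. Among the bright genes 3.53% were at least 2-fold lower and 5.1% at least 2-fold higher, and of the 39 bright members 1 (Ccne1) and 1 (Ccnd2) were. At 1.5-fold, 11 members were lower and 3 higher, where 10.2% and 23.3% of all measured genes were; of the bright members 9 were lower and 1 higher, where 13% and 12.8% of bright genes were. Most members thus differed by less than 1.5-fold, and most of these small differences were in the lower direction.

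**Figure D1:**
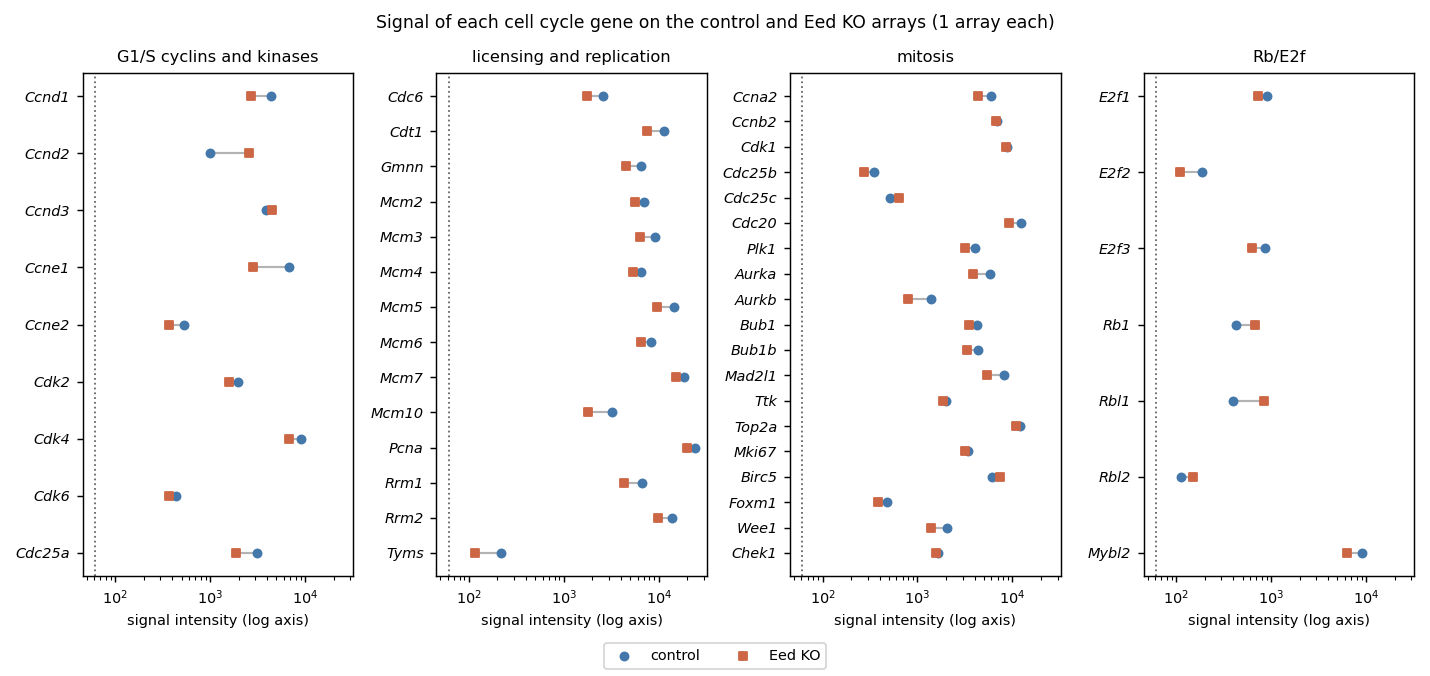
Signal intensity (log axis) of the 49 genes on the control array (circles) and the Eed KO array (squares), 1 array each, in panels by role, with the floor of 61.3 as a dotted line. All 14 licensing and replication genes lie further left in the Eed KO, while Ccnd2, Rb1, Rbl1 and Rbl2 lie further right.

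Among the genes of the G1/S transition, the cyclins differed from each other. Ccne1 encodes cyclin E1, the partner of Cdk2 at the entry into S phase. Its signal was 6718 on the control array and 2823 on the Eed KO array, 2.38-fold lower (log2 ratio -1.25). Its second probe set read 3634 and 1360 (-1.42), so both were lower by a similar amount. Cyclin E2, from Ccne2, was at 526.2 and 370.8 (-0.50), on a single probe set at a signal where probe sets scatter more.

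The 3 D-type cyclin genes, whose products bind Cdk4 and Cdk6 and respond to growth signals, went in different directions. Ccnd2 read 1010 (control) and 2600 (Eed KO), 2.57-fold higher (log2 ratio 1.36). All 6 of its probe sets above the floor on both arrays were higher, by 1.11 to 1.67 on the log2 scale. The weakest of the 6 read 91.1 and 196.8, and the seventh probe set was under the floor in the control (39.4) and above it in the Eed KO (94.8). Ccnd1 was at 4349 and 2703, 1.61-fold lower on its brightest probe set (-0.69), but its other probe sets were nearly equal on the arrays, at 2717 and 2469 (-0.14) and at 1958 and 1830 (-0.10). The size of the Ccnd1 difference thus rests on 1 of its 3 probe sets. Ccnd3 read 3840 and 4489 (0.23), with 0.73 on a dim second probe set (149.9 and 248.7), and its direction turned once both arrays had been given the same median (-0.08).

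On their brightest probe sets the kinases were all lower by less than 1.5-fold. Cdk4, the partner of the D-type cyclins, read 9172 and 6809 (-0.43), with its other probe sets at -0.51 and -0.26. Cdk6, its close relative, was at 437.7 and 365.1 (-0.26), while a second probe set of nearly the same control signal read 441.5 and 229.3 (-0.95). Cdk2, the partner of cyclin E, read 1990 and 1581 (-0.33). Cdc25a, the phosphatase that removes inhibitory phosphates from Cdk2, differed more than any of them: it read 3152 and 1892, 1.67-fold lower (-0.74), and 1894 against 706.2 (-1.42) on a second probe set.

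Licensing and replication genes were lower without exception on their brightest probe sets. All 14 had a ratio below 1, with a median log2 ratio of -0.52 and a range from -0.93 to -0.27, so none was 2-fold lower as deposited. All 14 were also lower under each of the 10 other scalings, floors and gene summaries tried. Of these, the other floors and the pseudocount cannot turn the direction of a probe set. In the alternatives, Tyms passed 2-fold in the 5 other scalings (-1.01 to -1.24). Mcm10 did so with equal array medians (-1.12) and poly-A spike scaling (-1.02). Of their 32 probe sets above the floor on both arrays 30 were lower.

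Licensing loads the Mcm2 to Mcm7 helicase onto origins before S phase. Cdc6, a loading factor, read 2587 and 1748 (-0.57), and Cdt1, which loads the helicase with it, read 11283 and 7457 (-0.60, and -0.72 on its second probe set). Gmnn encodes geminin, which inhibits Cdt1 and was lower as well, at 6475 and 4507 (-0.52). The loaders and their inhibitor thus differed in the same direction and by similar amounts.

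The 6 helicase subunits lay close together, although their signals covered a wide range. Mcm5 had the lowest ratio, at 14327 and 9590 (-0.58), followed by Mcm3 at 9186 and 6384 (-0.52), Mcm6 at 8341 and 6511 (-0.36) and Mcm2 at 7061 and 5595 (-0.34). Mcm4 at 6502 and 5308 (-0.29) and Mcm7 at 18261 and 15042 (-0.28) differed least. With a lowess correction for signal intensity Mcm7 was at -0.15, within the scatter of probe sets. The other Mcm3 probe sets were lower by more, with log2 ratios from -0.59 to -1.09. The subunits with neighbouring ratios are not separated by more than the scatter of probe sets at this signal. Of 18 probe sets for these 6 genes above the floor on both arrays 17 were lower. The exception was a dim Mcm5 probe set, at 115.9 and 170.0. Mcm10, which helps to activate the loaded helicase and is no part of that ring, was at 3199 and 1816, 1.76-fold lower (-0.82), with -0.65 on its second probe set and -0.32 when averaged over probe sets. Another Mcm10 probe set was under the floor in the control (40.5) and above it in the Eed KO (87.4).

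The genes for the clamp and for nucleotide supply followed. Pcna, the sliding clamp of the replicative polymerases, read 23976 and 19822 (-0.27). With a lowess correction for signal intensity it was at -0.14, within the scatter of probe sets. The subunits of ribonucleotide reductase, which makes deoxynucleotides, were lower by similar amounts: Rrm1 read 6708 and 4332 (-0.63, and -0.52 on its second probe set), and Rrm2 read 13762 and 9920 (-0.47, with -0.44 and -0.46 on the others). Tyms, the thymidylate synthase gene, had the lowest ratio of the group, at 218.8 and 114.8 (-0.93), but on a dim probe set. Its other probe set above the floor read 109.0 and 111.4 (0.03). A brighter probe set shared with the pseudogene Tyms-ps read 2662 and 2103 (-0.34), so the size of the Tyms difference is uncertain. It was -0.22 when averaged over probe sets and -0.38 under the higher floor (60th percentile). The average counts its probe sets under the floor on both arrays as no difference.

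**Figure D2:**
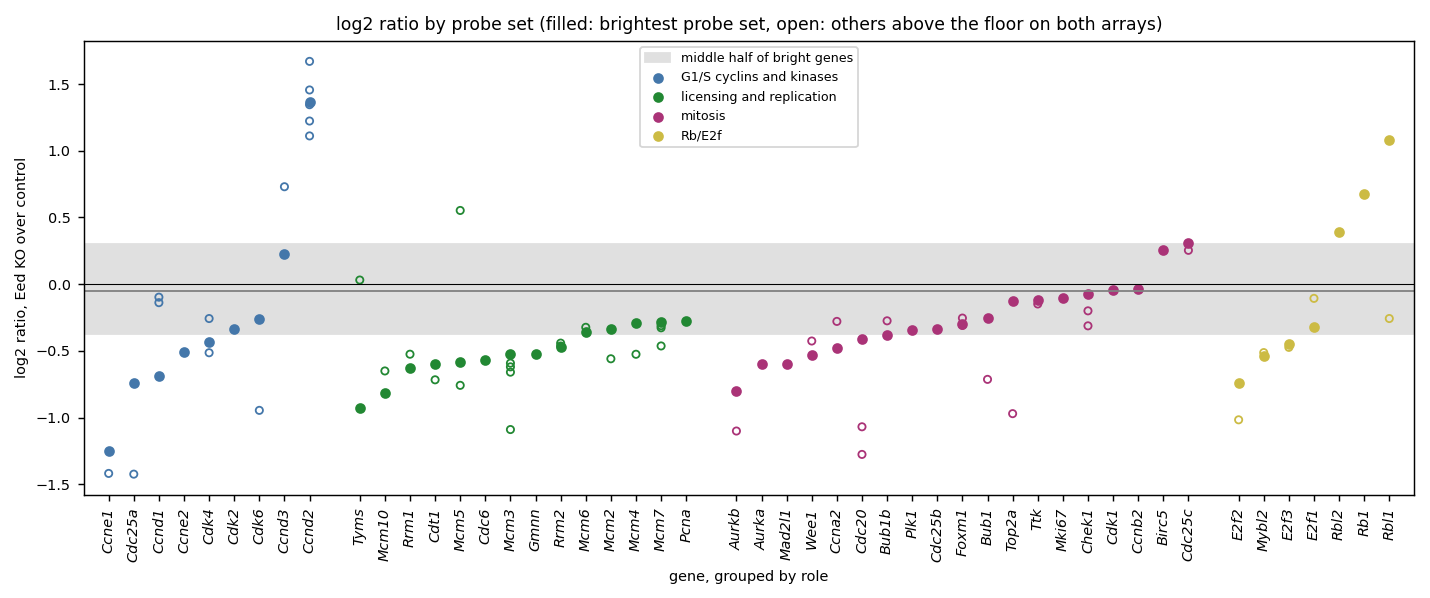
log2 ratio of Eed KO over control for each gene, grouped by role: filled points are the brightest probe set, open points the gene's other probe sets above the floor on both arrays, and the grey band is the interquartile range of the 5781 bright genes, from -0.37 to 0.30. Open points show where probe sets of a gene disagree, as for Ccnd1, Cdc20, Top2a and Rbl1.

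Mitotic genes were lower too, but their spread reached 0. Of the 19 measured, 17 had a ratio below 1, with a median log2 ratio of -0.30, a lowest value of -0.80 and a highest of 0.31. None differed by 2-fold. Of their 33 probe sets above the floor on both arrays 30 were lower.

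On the brightest probe sets the aurora kinases and a checkpoint protein had the lowest ratios of the group. Aurkb, the kinase of the chromosomal passenger complex, read 1394 and 802.1, 1.74-fold lower (-0.80), with -1.10 on its second probe set. Birc5 encodes survivin, another subunit of that complex, and was at 6139 and 7326 (0.26), in the other direction except where both arrays had the same median (-0.05). Aurka, the kinase of the spindle poles, read 5774 and 3805, 1.52-fold lower (-0.60). A second Aurka probe set was above the floor in the Eed KO array alone (81.1), and averaged over both Aurka was at -0.10. Mad2l1, which holds back anaphase until chromosomes are attached, read 8158 and 5388 (-0.60). The other checkpoint genes differed less: Bub1b was at 4317 and 3311 (-0.38), Bub1 at 4209 and 3528 (-0.25) and Ttk, the kinase that starts the checkpoint signal, at 1997 and 1843 (-0.12).

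The mitotic kinase Cdk1 and the cyclin gene Ccnb2 were nearly equal on the arrays, while the expression of Ccnb1 is not analysed here. Cdk1, the kinase of mitotic entry, read 8734 and 8468 (-0.04). Ccnb2, which encodes a cyclin that binds it, read 6889 and 6718 (-0.04). Both turned to 0.10 after quantile normalization and to 0.07 with a lowess correction for signal intensity, so they have no settled direction. Ccna2, the cyclin of S phase and G2, was lower, at 6023 and 4317 (-0.48, and -0.28 on its second probe set).

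Of the regulators of Cdk1, Wee1, which inhibits it, read 2025 and 1402 (-0.53, and -0.43 on its second probe set), and Cdc25b, which activates it, read 346.6 and 274.0 (-0.34). Cdc25c, another activating phosphatase, was at 512.5 and 633.5 (0.31), with 0.25 on its second probe set, and was at -0.002 where both arrays had the same median. Plk1, the polo-like kinase, read 4045 and 3191 (-0.34). Chek1, the checkpoint kinase that restrains Cdc25 phosphatases, read 1658 and 1575 (-0.07), with -0.31 and -0.20 on dimmer probe sets. Foxm1, a transcription factor for mitotic genes, read 474.7 and 386.5 (-0.30).

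Cdc20, which activates the anaphase-promoting complex, showed how far the choice of probe set can matter. Its probe set with the highest mean signal read 12195 and 9163 (-0.41), while another of similar control signal read 12398 and 5122 (-1.28) and the dimmest read 1527 and 728.4 (-1.07). All 3 were lower, by amounts that differ by more than the usual scatter, and averaged over them Cdc20 was at -0.92, next to Aurkb at -0.95. Top2a, the topoisomerase that untangles chromosomes, read 11969 and 10959 (-0.13) but 1248 and 637.4 (-0.97) on a dimmer probe set. Mki67, which encodes the proliferation marker Ki-67, was at 3421 and 3182 (-0.10).

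The Rb and E2f families went in opposite directions on their brightest probe sets. The 3 activator E2f genes were lower: E2f1 at 902.0 and 720.9 (-0.32), E2f2 at 184.8 and 110.6 (-0.74, and -1.02 on its second probe set) and E2f3 at 859.1 and 628.8 (-0.45, and -0.47 on its second). E2f1 was at 0.002 when averaged over its probe sets, of which 1 was above the floor in the Eed KO array alone (82.9). Mybl2, the B-Myb factor that E2f induces and that works with mitotic gene complexes, read 9064 and 6247 (-0.54, and -0.51 on its second).

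The 3 pocket protein genes, whose products bind and restrain E2f factors, were higher. Rbl1, encoding p107, read 397.0 and 840.7, 2.12-fold higher (1.08). Its second probe set above the floor was slightly lower instead, at 211.4 and 176.9 (-0.26), and as the mean over probe sets the log2 ratio was 0.21. That mean counts its probe sets under the floor on both arrays as no difference. The call at 2-fold therefore rests on 1 probe set, and the value was under 2-fold in 6 of 10 alternatives. Rb1 read 429.1 and 684.1 (0.67), on its only probe set above the floor. Rbl2, encoding p130, was at 113.3 and 148.8 (0.39), near the floor, where probe sets scatter by about as much. All 3 ratios stayed above 1 under every scaling, floor and summary tried, although with the floor at the 60th percentile Rbl2 was not measured. The other floors and the pseudocount cannot turn the direction of a probe set. For Rb1 the mean over probe sets could not turn it either. The sizes did not hold as well. Rbl2 was at 0.10 after quantile normalization or lowess correction and 0.09 with equal array medians, well within the scatter of probe sets. Rb1 was at 0.37 with equal array medians and at 0.34 as the mean over probe sets. That mean counts its other probe set, under the floor on both arrays, as no difference.

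**Figure D3:**
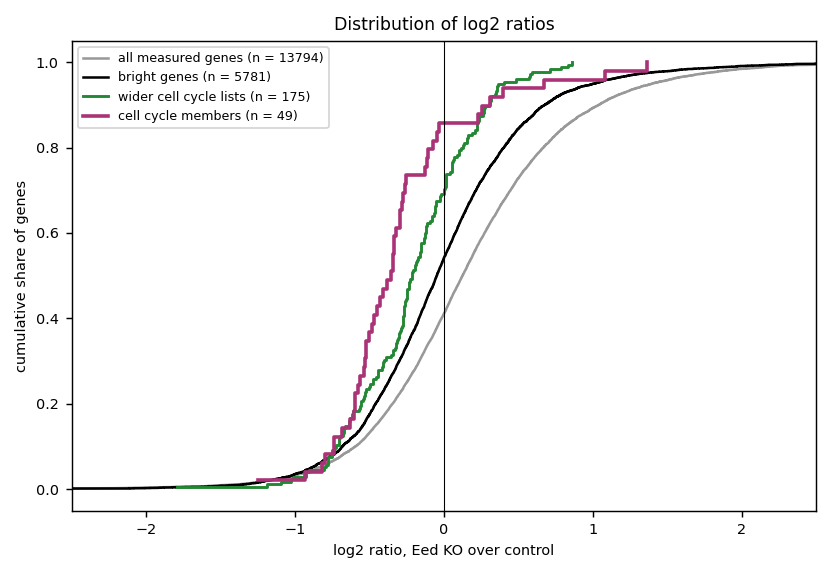
Cumulative share of genes (vertical axis) by log2 ratio of Eed KO over control (horizontal axis) for the 49 cell cycle genes, the 175 measured genes of the wider cell cycle lists, the 5781 bright genes and all 13794 measured genes. The curve of the 49 genes is shifted to lower ratios around its median of -0.36 and meets the others at the low end, near the single gene below -1.

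Genes of the same machinery outside the list were examined in 7 lists of 179 genes, of which 175 were measured (Mybl1 was under the floor, and the others are not analysed here). Of the 175, 121 had a ratio below 1 (69.1%) and the median log2 ratio was -0.22. None was at least 2-fold higher and 5 were at least 2-fold lower. At 1.5-fold 5 were higher and 32 lower, where 23.3% and 10.2% of all measured genes were (12.8% and 13% of bright genes). The shares for all measured genes were 41.1% below 1, 10.8% past 2-fold upward and 3.27% past 2-fold downward. For the bright genes, which most of these genes resemble in signal, they were 54.1%, 5.1% and 3.53%.

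As among the 49 genes, replication lists had lower medians than the spindle lists. The list of DNA polymerases, clamp loader and nucleotide supply had a median of -0.45 with 26 of 30 lower. Origin recognition, GINS and helicase activation had a median of -0.26 with 19 of 23 lower. The anaphase-promoting complex and SCF list was at -0.18 (17 of 23 lower), the other cyclins and checkpoint kinases at -0.17 (13 of 20), the spindle and kinetochore list at -0.12 (28 of 49) and condensin, cohesin and cytokinesis at -0.06 (10 of 17). The E2f and DREAM partners had a median of -0.12 with 8 of 13 lower. The bright genes had a median of -0.05 with 54.1% lower, and the spindle (57.1%) and condensin (58.8%) lists were near that share. None of these differences between lists was tested.

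The 5 genes past 2-fold were in 3 of the lists. Pola2, a subunit of the polymerase that primes replication, read 1567 and 735.2 (-1.09). Cdc26, a subunit of the anaphase-promoting complex, read 2677 and 1174 (-1.19). Myb, the proto-oncogene c-Myb, read 474.3 and 136.7 (-1.79). E2f8, a repressor of the E2f family, read 1105 and 542.5 (-1.03). Tfdp1, the DNA-binding partner of most E2f proteins, read 7585 and 3758 (-1.01) and was named after its value was seen. Their relatives in the list differed less, but not all by little. E2f4 read 1513 and 880.3 (-0.78). Tfdp2 was at -0.12, E2f7 at -0.13, E2f5 at -0.05 and E2f6, another repressor, at 0.31.

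E2f target genes are known by motifs near their starts, so promoter sequences were set beside the ratios. RefSeq windows (GRCm38.p6, 250 bases before to 50 after an annotated start) were at hand for 39 of the 50 genes. They were searched on both strands for an E2F motif (TTTCCCGC, TTTCGCGC, TTTGCCGC or TTTGGCGC), for TTTGAA, the CHR motif of mitotic genes, and for CCAAT. None of the motifs contains another, but forward and reverse E2F matches can overlap at 1 site. A match describes letters and is not evidence of binding.

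At least 1 E2F match was present in 12 of the 39 genes (30.8%), and in 2.61% of all 27025 genes with a window (2.26% of the 32851 windows, as some genes have several). Among the 11097 measured genes with a window, which like the members are expressed, the share was 4.55%. By role, it was present in 6 of 12 licensing and replication genes, 2 of 6 G1/S genes, 3 of 6 Rb/E2f genes and 1 of 15 mitotic genes. The CHR motif was present in 9 of 15 mitotic genes, 3 of 6 Rb/E2f genes, 1 of 12 licensing and replication genes and 0 of 6 G1/S genes. Its share was 20.2% of all genes (17.9% of windows) and 14.5% of measured genes. CCAAT was present in 26 of the 39 genes (66.7%), in 41.1% of all genes (37.4% of windows) and in 42.6% of measured genes.

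**Figure D4:**
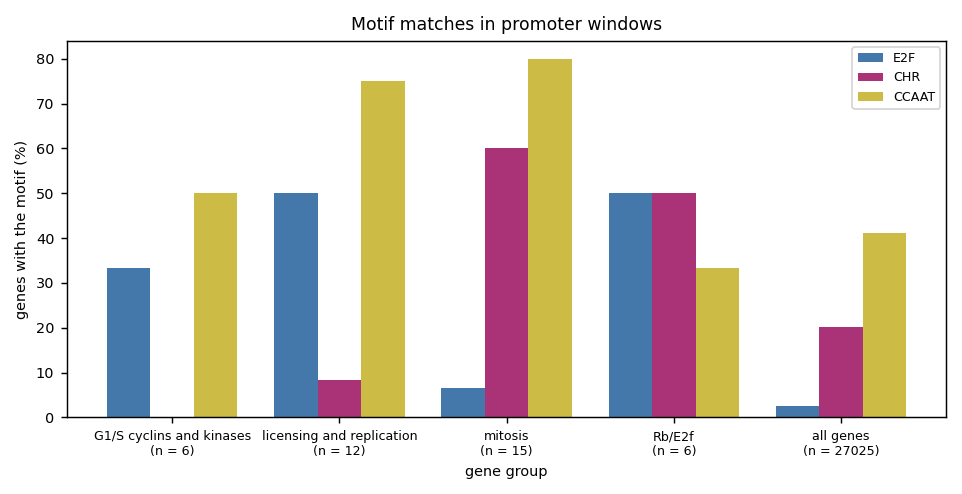
Percentage of genes with at least 1 match to the E2F, CHR or CCAAT motif in a promoter window (vertical axis, from 0), for the 4 groups of cell cycle genes and for all 27025 genes, with the number of genes under each group. E2F matches are most frequent in the licensing and replication and the Rb/E2f groups (6 of 12 and 3 of 6) and CHR matches in the mitotic group (9 of 15).

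The ratios were then set beside the motifs. Among the members with a measured value, the 12 with an E2F match had a median log2 ratio of -0.49 with 11 lower and 1 higher, and the 26 without one had -0.34 with 23 lower. The single higher gene with a match was Rbl1. Among other bright genes, the 269 with an E2F match had a median of -0.10 and the 4491 without one had -0.05. The 13 members with a CHR match had a median of -0.34 and the 25 without one -0.43.

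The windows below were chosen to show a contrast among members past 1.5-fold. Rbl1 was higher on its brightest probe set and Cdc25a lower, although each has an E2F match. E2f2 and Cdt1 also have a match and were lower too. Ccne1, the lowest of all members as deposited, has no match to these motifs in the bases shown. Capitals mark the motif matches. Each sequence is the part before the annotated start, 250 bases, 5′ to 3′ on the gene's strand, from RefSeq GRCm38.p6: Rbl1 at chr2:157204535-157204784 on the minus strand, Cdc25a at chr9:109875329-109875578 on the plus strand and Ccne1 at chr7:38107491-38107740 on the minus strand.
Rbl1: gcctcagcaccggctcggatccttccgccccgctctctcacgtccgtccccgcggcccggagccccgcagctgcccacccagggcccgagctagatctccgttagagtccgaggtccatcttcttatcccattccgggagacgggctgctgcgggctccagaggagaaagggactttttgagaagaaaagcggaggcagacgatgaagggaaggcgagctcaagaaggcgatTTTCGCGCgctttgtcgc
Cdc25a: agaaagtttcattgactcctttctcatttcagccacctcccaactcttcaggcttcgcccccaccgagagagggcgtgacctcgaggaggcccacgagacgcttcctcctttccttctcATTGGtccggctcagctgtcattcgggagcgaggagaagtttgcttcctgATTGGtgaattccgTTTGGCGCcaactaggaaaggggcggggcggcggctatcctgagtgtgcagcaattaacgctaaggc
Ccne1: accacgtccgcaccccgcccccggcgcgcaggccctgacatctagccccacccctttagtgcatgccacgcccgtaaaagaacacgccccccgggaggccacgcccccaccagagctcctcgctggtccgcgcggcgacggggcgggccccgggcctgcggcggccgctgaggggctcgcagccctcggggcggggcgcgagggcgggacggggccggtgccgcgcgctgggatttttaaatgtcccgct

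The E2F match of Rbl1, TTTCGCGC, ends 10 bases before the annotated start, and that of Cdc25a, TTTGGCGC, ends 59 bases before it. Cdc25a also has 2 CCAAT matches on the reverse strand, read as ATTGG, which end 126 and 76 bases before the start. Where no match was found, only these letters are missing from this window.

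The shift of the members kept its direction under each way of scaling the arrays, but not every scaling could change it. Equal array medians and spike scaling multiply each array by a constant, which moves all ratios nearly alike. Their similar values are therefore no check of the shift. The members' median was lower than that of all measured genes by 0.48 on the log2 scale as deposited, and by between 0.37 and 0.51 under the 10 alternatives. Quantile normalization and the lowess correction, which can change this difference, both gave 0.37. Set against the bright genes, the members' median was lower by 0.31 as deposited and by between 0.23 and 0.36 under the alternatives. The median of all measured genes itself moved from 0.12 to -0.16 once both arrays had the same median, and the members' own median then read -0.66 with 45 of 49 lower. In that setting 60.6% of all measured genes had a ratio below 1. The order of the 4 roles depended on the setting: licensing and replication had the lowest median as deposited (-0.52), but was level with the G1/S group after quantile normalization (-0.40 and -0.44) and with the lowess correction (-0.42 and -0.43). The Rb/E2f group had a median of 0.002 as the mean over probe sets. Mitotic genes had the highest median of the 4 roles as deposited (-0.30).

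**Figure D5:**
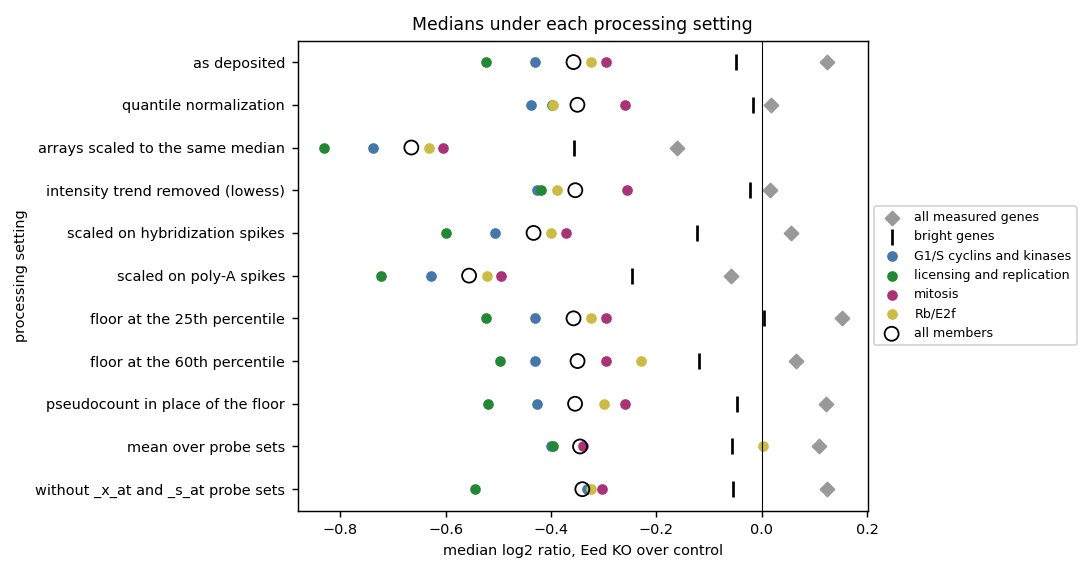
Median log2 ratio of Eed KO over control (horizontal axis) under the deposited scaling and 10 alternatives (vertical axis), for the 4 roles (filled points), all members (open circles), the bright genes (bars) and all measured genes (diamonds). The members' median lies below that of all measured genes in each setting, while the order of the roles changes between settings.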

How the data were processed

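RNA of 1 control and 1 Eed KO culture of mouse ES cells was labelled with biotin and hybridized to 1 array each, per the labels' protocols. The values are intensity signals that the authors computed with MAS5, per the submitters' processing notes, on a linear scale. Version and detection calls are not given in the sources used here. The deposited columns were already scaled: the mean without the lowest and highest 2% of 45101 probe sets was 500 on both.

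Genes were named from the platform annotation: 34945 probe sets had 1 symbol, 932 several, 9160 none, and 64 were manufacturer's controls. Genes with the brightest probe set under the floor on both arrays were not measured. Calls were made at 2-fold; no p-value was computed. The procedure was tested on simulated data. Analysis used Python 3.11.15 with pandas 2.3.3 and numpy 2.4.6. The members and lists were chosen with earlier results of these data known. Named were all members, and from each wider list up to 2 genes in each direction past 2-fold and above the floor on both arrays. Alternatives were 5 other scalings, 2 other floors, a pseudocount, the mean over probe sets, the removal of probe sets marked as matching several transcripts (_x_at and _s_at), and calls at 1.5-fold and 3-fold. The mean took in all probe sets of a gene with low signals raised to the floor. A probe set under the floor on both arrays thus counted as no difference and drew the mean toward equal signals. The number of arrays limits the precision.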

Additional observations from a re-analysis of the deposited data

How the results depend on the processing

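The count of members at least 2-fold higher (2, Ccnd2 and Rbl1) was 1, with Ccnd2 alone, after quantile normalization, equal array medians, lowess correction or poly-A spike scaling, with a pseudocount, and when probe sets were averaged. The share of all measured genes at least 2-fold higher was 10.8% as deposited and between 6.35% and 7.85% in these settings. The count at least 2-fold lower (1, Ccne1) was 2 with hybridization spike scaling, 3 after quantile normalization, lowess correction or poly-A spike scaling, and 6 with equal array medians. The share of all measured genes at least 2-fold lower moved as well, from 3.27% to 3.98% with hybridization spike scaling, 4.26% after quantile normalization, 4.29% with the lowess correction, 5.57% with poly-A spike scaling and 7.53% with equal medians. At 1.5-fold 11 were lower and 3 higher, and at 3-fold 0 were lower and 0 higher. In the alternatives at 2-fold the added genes were Tyms, E2f2, Mcm10, Cdc25a and Aurkb, and Ccnd2 and Ccne1 kept their calls in all 10 that left the fold at 2. Of the 49 members, 39 were lower and 4 (Ccnd2, Rb1, Rbl1 and Rbl2) higher under every one of these 10 in which they were measured. The other floors and the pseudocount could not have turned a direction. The number with a ratio below 1 ranged from 40 to 45, a count and its alternatives that were chosen after seeing the data, as was the difference between the medians. Over the same settings the share of all measured genes with a ratio below 1 ranged from 39.8% to 60.6%. Among the single-gene values, 399 moved by less than the scatter of probe sets and 89 by more. The cause of these changes was not tested. No paired analysis was possible because each group has 1 array.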

Other observations

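A further probe set, listed for Foxm1 together with Tex52 and Pebp1, read 528.4 (control) and 414.0 (Eed KO; log2 ratio -0.35), near the -0.30 of Foxm1's own brightest probe set. It cannot be given to 1 of these genes.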
